A study of Saccharomyces cerevisiae with 6 samples.

Results

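IGS 1 is the stretch of the yeast ribosomal DNA (rDNA) repeat between T2, the second termination site of RNA polymerase I (Pol I), and the 5S gene. It covers 876 of the 9137 positions of the repeat, from position 6898 to position 7773 counted from the 35S transcription start site, at 459797 to 460672 of chromosome XII in the R64 build of *Saccharomyces cerevisiae*. These positions were chosen by their coordinates alone, and the read ends on the strand that Pol I transcribes were counted at each of them. The measurement is native elongating transcript sequencing (NET-seq), in which RNA still bound to purified Pol I is sequenced so that its 3′ end marks where the polymerase stood. The data comprise 3 libraries from a wild-type (WT) strain whose Pol I subunit Rpa135 carries an HA tag and 3 from a derivative of that strain with a full deletion of *RPA12* (*rpa12Δ*). Both strains were grown in YEPD medium to early log phase, and Pol I was collected through the HA tag with anti-HA beads, so that both groups carry the tagged subunit. Each genotype is represented by a single strain, and the study describes its 3 libraries as biological replicates.

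Pol I transcribes the 35S pre-rRNA and normally ends at T1, shortly after the mature 25S rRNA, with T2 as the fail-safe site behind it. Rpa12 (A12.2) is the Pol I subunit that serves RNA cleavage and termination. Past T2 lie the replication fork barrier sites RFB3, RFB2 and RFB1, where the protein Fob1 binds and stops replication forks that would run against transcription. Further on lies E-pro, a bidirectional RNA polymerase II promoter, and then the 5S gene, which RNA polymerase III transcribes in the direction opposite to Pol I. A polymerase that reads through T2 therefore meets the barrier sites, E-pro and the 3′ end of the 5S gene in that order.

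The libraries held 4344302 to 6755222 reads in WT and 13588526 to 14634449 in *rpa12Δ*. Occupancy is given in RPM, meaning per 1000000 ends that a library had between the 35S start site and T1, so a change in IGS 1 and an opposite change in that 35S sum cannot be told apart. In IGS 1, 765, 622 and 457 ends were found for WT replicates 1 to 3, and 37662, 38376 and 41650 for *rpa12Δ*. The weight of 1 end was 0.200 to 0.322 RPM for WT libraries and 0.105 to 0.116 RPM for *rpa12Δ* libraries. Reads over *RPA12*, the deleted gene, numbered 8, 9 and 4 for WT and 0, 0 and 1 for *rpa12Δ*. R64 was taken to contain 2 copies of the repeat up to position 7015, inside RFB1, and 1 copy of the 758 positions after it. This limit was placed where *rpa12Δ* reads on the second copy gave out, without use of the genome sequence. Reads of all copies were summed on 1 repeat, a choice made after the unequal copies had been seen. PCR copies are not independent molecules, so intervals and limits from counts cover counting error only.

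IGS 1 was occupied far more densely in *rpa12Δ* than in WT. WT replicates 1 to 3 summed to 153, 167 and 147 RPM over the 876 nt (156 ± 10.3, SD, n = 3). The *rpa12Δ* replicates summed to 3967, 4458 and 4839.9 RPM (4422 ± 438, SD, n = 3). The lowest *rpa12Δ* library was far above the highest WT library (exact two-sided permutation test, p = 0.1, the smallest that 3 libraries against 3 can give). The log2 difference was 4.82 (SE 0.11, limma adjusted p = 3.42e-09 over 21 regions and features of the repeat, of which 85.7% were higher in *rpa12Δ*). With the single complete copy counted as the positions were defined, IGS 1 came to 315, 338 and 306 RPM in WT and 7031, 7764 and 8203 RPM in *rpa12Δ*, and the log2 difference was 4.58. The WT total was largely a signal beside the 5S gene, described last, and without the final 50 nt it fell to 76.1, 74.7 and 66.9 RPM. This was below the opposite strand of the same stretch, which held 150.7, 189 and 171 RPM in WT, so the WT values are read ends on the Pol I strand and were not shown to be Pol I readthrough. The *rpa12Δ* libraries still held 3833, 4374 and 4749.8 RPM there, and the log2 difference became 5.87.

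Fewer positions held read ends in WT, at its lower depth. In *rpa12Δ*, 826 of the 876 positions held read ends in all 3 libraries and 13 held none in any library. In WT, 42 positions held read ends in all 3 libraries and 616 held none, where a count of 0 in a library allows up to 0.601 to 0.965 RPM (3 counts).

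**Figure D1:**
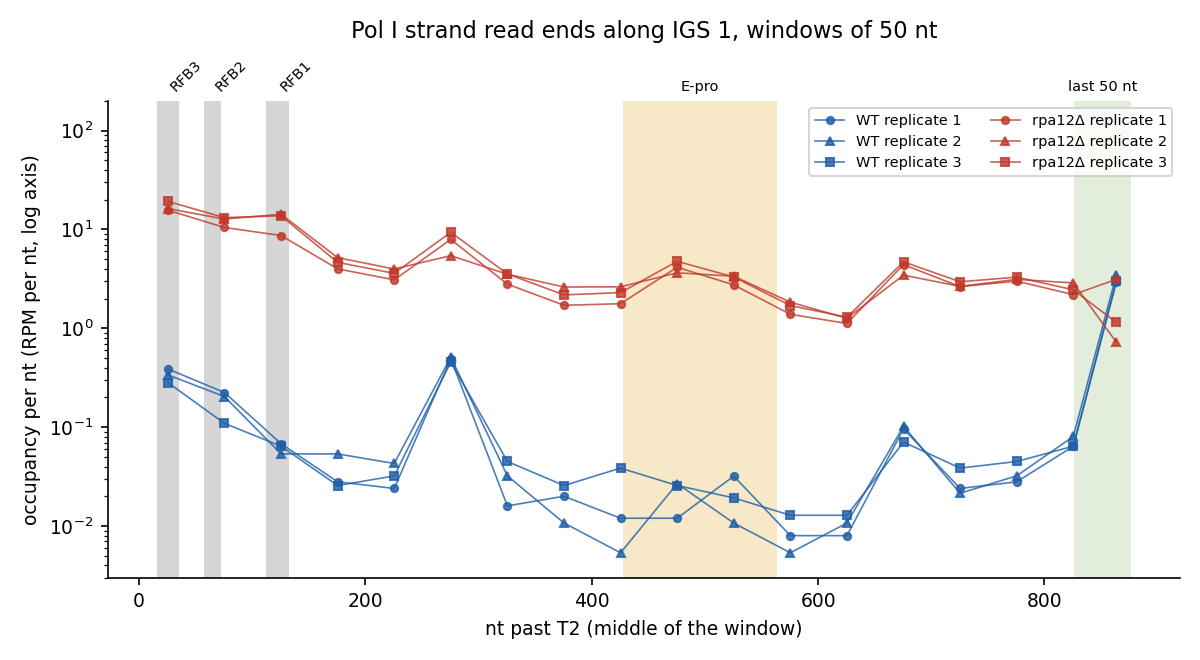
Occupancy per nucleotide (RPM per nt, log axis) of the 6 libraries in windows of 50 nt against the distance past T2, with the RFB sites, E-pro and the last 50 nt before the 5S gene shaded. The *rpa12Δ* lines lie above the WT lines up to the last window, where *rpa12Δ* replicate 1 lies among the WT libraries.

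Readthrough in *rpa12Δ* decayed along IGS 1 and stayed above WT in every full window of 50 nt. The first 50 nt after T2 held 782, 813 and 961 RPM in *rpa12Δ* replicates 1 to 3 and 19.4, 16.9 and 14.1 RPM in WT. The lowest full window of *rpa12Δ*, positions 7498 to 7547, held 56.0, 63.2 and 64.7 RPM against 0.401, 0.537 and 0.643 RPM in WT. This minimum began 601 nt past T2, and the full windows after it were higher. In the last full window, positions 7698 to 7747, *rpa12Δ* kept 125 ± 17.4 RPM and WT 3.48 ± 0.473 RPM (SD, n = 3 each).

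A straight line through log2(RPM + 1) over the 17 full windows fell by 0.28, 0.31 and 0.31 per 100 nt in *rpa12Δ* replicates 1 to 3. At that rate the occupancy falls to 50% over 359, 327 and 324 nt. The fall was uneven, so this distance is an average over the 17 windows and not a rate of each stretch. The *rpa12Δ* mean was 611 RPM at positions 6998 to 7047, 230 RPM at positions 7048 to 7097 and 125 RPM at positions 7698 to 7747. In WT the slopes were -0.24, -0.24 and -0.17 per 100 nt, but 11 of the 18 windows averaged under 2 RPM there, so the added 1 RPM flattens the WT line. The slopes differed by -0.080 (*rpa12Δ* minus WT, exact permutation test, p = 0.1), and the direction of this difference depended on the measure. When the 17 windows were split at their middle, the log2 ratio of the later to the earlier stretch was -1.28, -1.45 and -1.43 for *rpa12Δ* and -2.07, -2.01 and -1.68 for WT, the less steep fall in *rpa12Δ*. The 100 nt that end 50 nt before the 5S gene had 17.2% ± 1.35 of the occupancy of the first 100 nt for *rpa12Δ* and 15.5% ± 3.604 for WT (SD over 3 libraries, exact permutation test on the log2 ratios, p = 0.4, adjusted p = 0.4 over 3 ratios). The strains are therefore not ordered by their decay here.

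Of the 18 windows, 17 were higher in *rpa12Δ* in limma's test over the whole repeat, in which 62% of 184 windows were higher. Their log2 differences ran from 3.87 to 7.19. The median of the 18 windows was 5.86, beside 0.39 for all windows of the repeat. The rise was not particular to IGS 1. Past T1, with IGS 1 included, 48 of 49 windows were higher, against 66 of 135 up to T1. The log2 difference was 4.29 between T1 and T2, 5.12 in the 5S gene and 4.27 in IGS 2. The window at positions 8874 to 8923, in IGS 2, reached 7.91. On this scale, with 1 RPM added, the largest difference within IGS 1 was at positions 6998 to 7047, which include RFB1. They held 434, 712 and 687 RPM in *rpa12Δ* and 3.41, 2.69 and 3.22 RPM in WT. By the pooled ratio of read ends, that window (193, exact 95% counting interval 140.2 to 275) was not ahead of positions 7348 to 7397 (206, 118 to 399), where WT held 12 read ends. The smallest of the 17 was at positions 7148 to 7197, the window that stood out in WT.

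**Figure D2:**
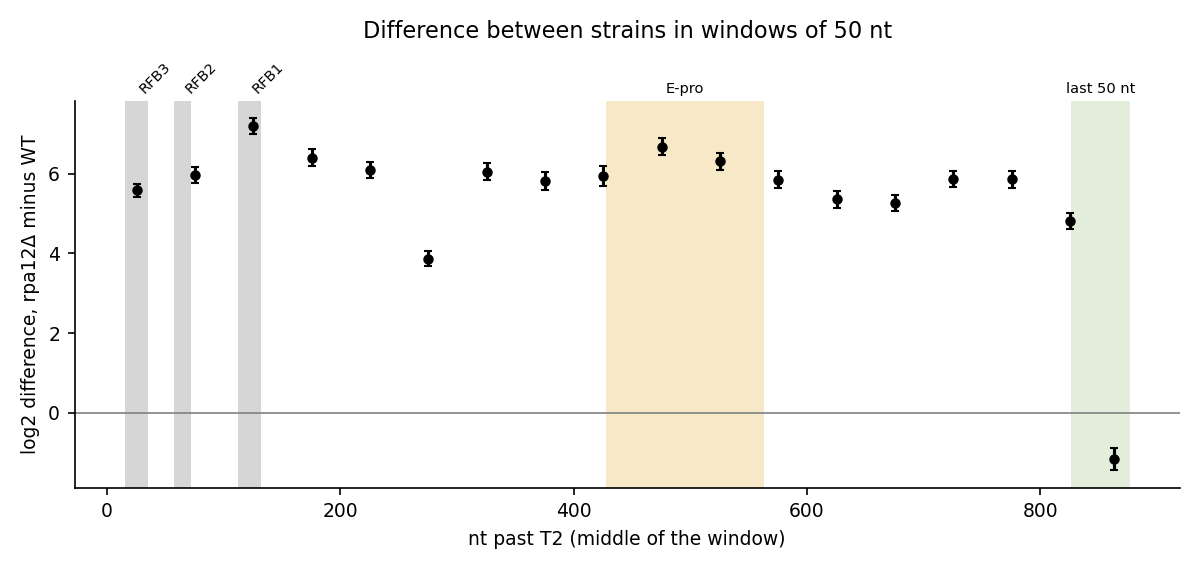
The log2 difference between the strains (*rpa12Δ* minus WT) on log2(RPM + 1) in each window of 50 nt, with bars of 1 standard error, against the distance past T2. The 17 full windows lie between 3.87 and 7.19, and the last window, which is 26 nt long, lies at -1.16.

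Single positions were tested where the mean over the 6 libraries was at least 10 RPM, which 43 IGS 1 positions passed and 833 did not. The means just inside and just outside this limit were 10.0 and 9.95 RPM. Of the 43 positions, 41 were higher in *rpa12Δ*, where 42.9% of the 6414 positions tested in the repeat were. Past T1, with IGS 1 included, 90 of 92 tested positions were higher, against 2661 of 6322 up to T1. The 41 passed the limit through *rpa12Δ*, since all WT libraries were below 10 RPM at 41 of the 43. The count is therefore not independent of the filter. Position 7765 was lower (log2 difference -0.94, limma adjusted p = 0.0273), against 10.6% of positions in the repeat, and position 7766 did not pass the test. Both lie in the final 50 nt, and position 7765 was picked out after its values were seen, as the only one lower. It held 14.0, 16.4 and 12.5 RPM in WT and 18.01, 3.83 and 4.42 RPM in *rpa12Δ*, so the strains overlapped and *rpa12Δ* replicate 1 lay above every WT library.

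The highest positions of *rpa12Δ* crowded into the stretch from T2 to the end of RFB1. Of the 826 positions before the final 50 nt, 100 reached a mean of 10 RPM in *rpa12Δ*, against 0 in WT. The stretch of 132 nt from T2 to the end of RFB1 held 52 of the 100. It took 42.0, 44.5 and 44.98% of the read ends before the final 50 nt in *rpa12Δ* and 41.6, 37.8 and 31.7% in WT (exact permutation test, p = 0.1, adjusted p = 0.133 over 4 such shares). *rpa12Δ* replicate 1 and WT replicate 1 differed by less than the spread within either strain. The share of the first 100 nt was 33.8% ± 0.546 for *rpa12Δ* and 35.3% ± 5.54 for WT (SD over 3 libraries, exact permutation test, p = 0.7), a difference smaller than the WT spread.

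**Figure D3:**
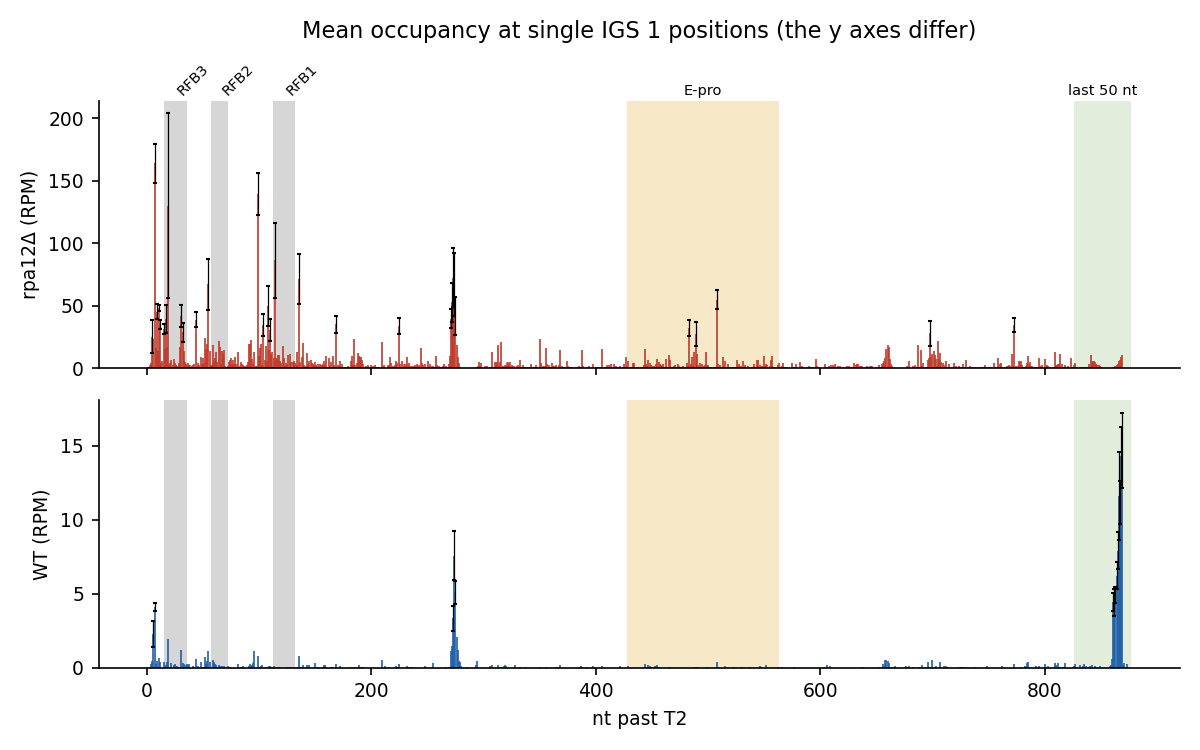
Mean occupancy (RPM) of 3 libraries at each IGS 1 position in *rpa12Δ* (top) and WT (bottom, on its own smaller scale) against the distance past T2, with SD bars at positions above 15% of the panel's highest mean. The tall *rpa12Δ* positions lie mostly before the end of RFB1, and the tall WT positions lie 7 nt and 274 nt past T2 and beside the 5S gene.

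The tallest position of *rpa12Δ* was 6904, 7 nt past T2, with 169.8, 146 and 176 RPM in replicates 1 to 3. WT had a local peak at the same position, of 4.41, 4.03 and 3.86 RPM. The log2 difference was 5.01 (SE 0.16). It is a description, since position 6904 was named for its height in *rpa12Δ* and passed the 10 RPM limit through that strain. The first position of IGS 1, 6898, was by contrast nearly empty, with 9, 6 and 2 read ends in *rpa12Δ* and 0 in every WT library, at least 2.51-fold higher against a floor of 3 counts over the WT libraries.

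RFB3, the barrier site nearest to T2 (positions 6913 to 6932), held 242, 349.7 and 452 RPM in *rpa12Δ* and 7.21, 5.11 and 4.18 RPM in WT. The log2 difference was 5.73 (SE 0.25, limma adjusted p = 1.01e-07). The *rpa12Δ* replicates spread most at its highest position, 6916, with 70.0, 108 and 213 RPM, the widest relative spread (SD 56.7% of the mean) among the tested positions before the final 50 nt. WT was also highest at 6916 within RFB3, with 2.40, 1.88 and 1.61 RPM. Position 6928, a local peak of both strains, held 32.2, 49.4 and 43.1 RPM in *rpa12Δ* and 1.20, 1.07 and 1.29 RPM in WT.

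Between RFB3 and RFB2, positions 6941 and 6952 were local peaks of 38.8 ± 5.87 and 67.3 ± 20.3 RPM in *rpa12Δ* against 0.617 ± 0.204 and 1.15 ± 0.228 RPM in WT (SD, n = 3). RFB2 itself (positions 6955 to 6969) held none of the 10 tallest local peaks. It held 119.9, 161 and 138 RPM in *rpa12Δ* and 1.60, 3.22 and 1.61 RPM in WT, a log2 difference of 5.51 (SE 0.21, limma adjusted p = 3.76e-08). Its highest position was 6961 in *rpa12Δ*, with 22.1 ± 4.72 RPM, and 6956 in WT, with 0.509 ± 0.260 RPM (SD over 3 libraries).

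The gap between RFB2 and RFB1 (positions 6970 to 7009) was more occupied per nucleotide than RFB2 in *rpa12Δ*, at 13.5 ± 2.03 against 9.30 ± 1.36 RPM per nt. WT ran the other way, at 0.109 ± 0.0300 against 0.143 ± 0.0623 RPM per nt (SD over 3 libraries), a difference within its spread. The gap rose by 6.67 on the log2 scale (SE 0.19, limma adjusted p = 5.74e-09). Its peak at 6996, 99 nt past T2, was the second tallest position of *rpa12Δ*, with 141, 122 and 155 RPM, and held 0.601, 1.07 and 0.643 RPM in WT.

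RFB1, the barrier site farthest from T2, was the emptiest of the 3 in WT. Its difference was the largest of the 3 with 1 RPM added, but with 10 RPM added it was 4.39 against 4.49 for RFB3. It held 144, 259 and 249 RPM in *rpa12Δ* and only 2, 3 and 1 read ends in WT replicates 1 to 3. The pooled ratio was 424 with an exact 95% counting interval from 195 to 1156, and the log2 difference on the scale with 1 RPM added was 7.14 (SE 0.24, limma adjusted p = 1.79e-08). Position 7011, the second of the site, held 51.9, 100.5 and 106 RPM in *rpa12Δ* and 0 read ends in every WT library, at least 335-fold higher against a floor of 3 counts over the WT libraries. The highest WT position of RFB1, 7010, held 1 read end in 1 library and 74, 84 and 65 in *rpa12Δ*. *rpa12Δ* replicate 1 was the lowest of its strain at RFB3, RFB2 and RFB1 alike.

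Past RFB1 the *rpa12Δ* profile became sparser, with single local peaks on a low floor. Position 7033, 136 nt past T2, held 50.4, 90.2 and 74.5 RPM in *rpa12Δ* and 1.20, 0.537 and 0.643 RPM in WT. Of the 15 windows that have a full neighbour on each side, 4 were above both neighbours in all 3 *rpa12Δ* libraries. They began at positions 7148, 7348, 7548 and 7648, on the grid of 50 nt windows. In WT 2 windows were, and both of these were among the 4.

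The window at positions 7148 to 7197 was the most occupied stretch of WT IGS 1 before the final 50 nt. It held 24.6, 25.5 and 22.8 RPM in WT, 123, 95 and 71 read ends, and 396, 271 and 468 RPM in *rpa12Δ*. WT was thus above the first 50 nt after T2, where the replicates held 19.4, 16.9 and 14.2 RPM, and *rpa12Δ* was below them. The log2 difference of the window was 3.87 (SE 0.18, limma adjusted p = 2.68e-18 over 184 windows). It took 32.4, 34.2 and 34.1% of the WT read ends before the final 50 nt and 10.3, 6.21 and 9.85% of the *rpa12Δ* read ends (exact permutation test, p = 0.1, adjusted p = 0.133 over 4 shares). This window was chosen for its WT height, so the comparison of shares is a description of it.

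Few of its reads fit elsewhere, with a mapping quality of 0 for 1.73% of them in WT and 0.425% in *rpa12Δ*. They came in 108 distinct intervals with 34 different other ends in WT and 834 intervals with 91 other ends in *rpa12Δ*, and no other end held more than 11.4%. The opposite strand was also occupied there, at 43.9, 47.6 and 37.6 RPM in WT and 55.3, 40.2 and 42.2 RPM in *rpa12Δ* (exact permutation test, p = 0.7).

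**Figure D4:**
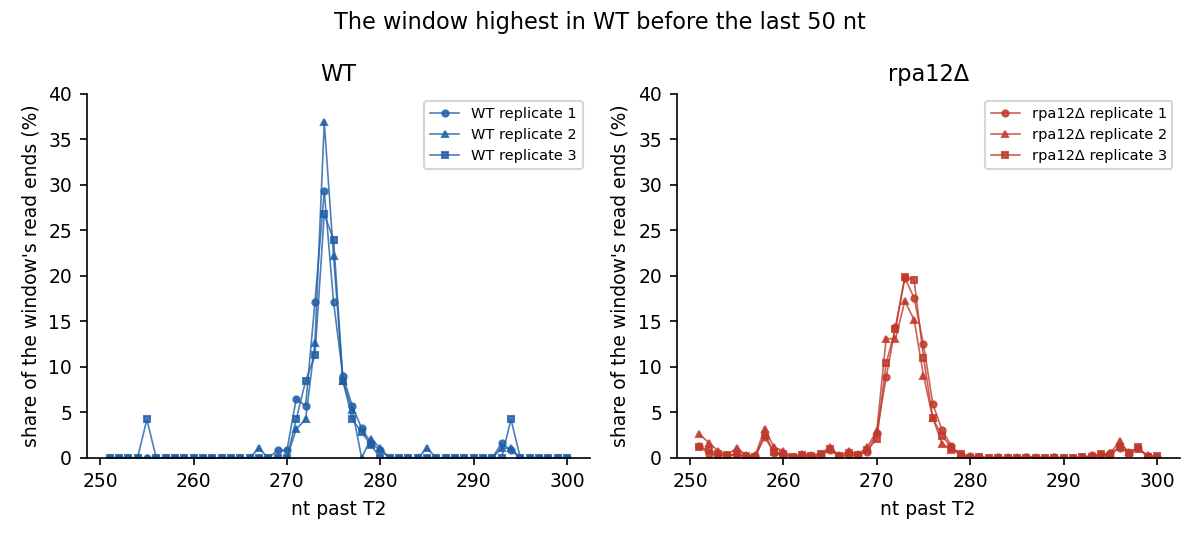
Share of the read ends of the window at positions 7148 to 7197 (%) at each position against the distance past T2, with a line for each WT library (left) and each *rpa12Δ* library (right). The WT libraries peak 274 nt past T2 and the *rpa12Δ* libraries 273 nt past T2.

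The peak inside the window lay 1 nt further on in WT. In WT, position 7171 held 36, 35 and 19 read ends and position 7170 held 21, 12 and 8. In *rpa12Δ*, position 7171 held 660, 354 and 786 read ends and position 7170 held 742, 402 and 798. The ratio of 7171 to 7170 was 1.71, 2.92 and 2.38 in WT and 0.889, 0.881 and 0.985 in *rpa12Δ*, with no overlap (exact permutation test on the log2 ratio, p = 0.1). This ratio was computed after the values had been seen. Both positions were higher in *rpa12Δ*, by 2.94 (SE 0.23) at 7171 and 4.05 (SE 0.23) at 7170 on the log2 scale. Both passed the 10 RPM limit through *rpa12Δ*, so these differences are a description.

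E-pro (positions 7325 to 7460) was almost empty in WT, with 15, 8 and 13 read ends or 3.01, 2.15 and 4.18 RPM. In *rpa12Δ* it held 415, 456 and 506 RPM. The log2 difference was 6.83 (SE 0.18, limma adjusted p = 5.45e-09), and the pooled ratio was 150.3 with an exact 95% counting interval from 109 to 215. Its tallest position in both strains was 7405, with 47.1, 54.6 and 62.4 RPM in *rpa12Δ* and 3, 1 and 1 read ends in WT. E-pro took 10.8, 10.4 and 10.7% of the *rpa12Δ* read ends before the final 50 nt and 3.95, 2.88 and 6.25% in WT (exact permutation test, p = 0.1, adjusted p = 0.133). The window at positions 7348 to 7397 rose above its neighbours in *rpa12Δ* by a factor of 1.83, 1.22 and 1.70, and WT had 3, 5 and 4 read ends there, too few to show such a rise.

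Beyond E-pro, positions 7461 to 7723 held 659.9, 655 and 719.6 RPM in *rpa12Δ* and 10.0, 10.2 and 9.97 RPM in WT, a log2 difference of 5.94 (SE 0.086, limma adjusted p = 4.28e-10). The window at positions 7548 to 7597 rose above its neighbours in both strains. It held 220.3, 172 and 235 RPM in *rpa12Δ*, 2.11 ± 0.307 times the mean of its neighbours, and 4.81, 5.11 and 3.54 RPM in WT, 5.03 ± 1.98 times that mean (SD over 3 libraries). The WT ratio rests on 24, 19 and 11 read ends in the window.

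The final 50 nt before the 5S gene were the only feature of IGS 1 without a call in limma's test. They held 77.1, 92.4 and 80.1 RPM in WT and 134, 84.7 and 90.1 RPM in *rpa12Δ*, so that the strains overlapped. The log2 difference was 0.28 (SE 0.18, limma adjusted p = 0.171, exact permutation test, p = 0.3). The last window, positions 7748 to 7773, was the only one called lower in *rpa12Δ* by limma, where 12.5% of all windows of the repeat were called lower. It held 75.9, 90.0 and 78.5 RPM in WT and 81.3, 18.8 and 29.9 RPM in *rpa12Δ*, and *rpa12Δ* replicate 1 lay among the WT libraries. The log2 difference was -1.16 (SE 0.29, limma adjusted p = 0.000649, exact permutation test, p = 0.3). Without the variance trend the limma adjusted p was 0.031. The difference ran from -1.73 without *rpa12Δ* replicate 1 to -0.71 without *rpa12Δ* replicate 2.

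Nearly all of the signal in these 26 nt came from reads of mapping quality 0, the score given to reads that fit more than 1 place. The window took 49.5, 53.9 and 53.4% of the WT read ends of IGS 1 and 2.05, 0.422 and 0.617% of the *rpa12Δ* read ends. A mapping quality of 0 was given to 99.7, 99.7 and 100% of its reads in WT and 98.2, 93.8 and 96.9% in *rpa12Δ*, although R64 was taken to hold a single rDNA copy here. Between position 7015 and this window, that share was at most 1.08% in any library. A common RNA 5′ end at position 7738 was shared by 350, 306 and 227 of the 379, 335 and 244 reads in WT and by 712, 142 and 233 of the 772, 162 and 257 reads in *rpa12Δ*. The window held 28, 26 and 22 distinct intervals in the WT libraries. Its highest position, 7766, held 14.0, 17.5 and 12.5 RPM in WT and 23.0, 4.53 and 5.23 RPM in *rpa12Δ* (limma adjusted p = 0.0972). The last position, 7773, held 0 read ends in WT and 2 in all of *rpa12Δ*.

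A search of the quality-0 reads of the whole genome found reads of similar lengths and counts at other places. At 9749 places such reads shared an end and numbered at least 30% of the 1962 reads that share the end at 459832 on chromosome XII. The counts by read length and library were correlated with those of the 1962 reads after taking square roots. The most similar counts were on chromosome IX at 387144, with 2027 reads (r = 0.976), and on chromosome VIII at 236958, with 1988 reads (r = 0.968), both on the negative strand and outside annotated genes. The first lies between YIR018C-A and *FLO11*, a cell-surface flocculin gene, and the second 46 nt from *PCL5*, a cyclin gene. The next place had r = 0.883 with 885 reads. The IGS 1 place held 350, 305, 225, 709, 142 and 231 such reads in the 6 libraries (WT first), against 391, 317, 235, 720, 117 and 247 on chromosome IX and 361, 274, 212, 734, 164 and 243 on chromosome VIII. From which place the RNA came cannot be told apart with these reads.

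**Figure D5:**
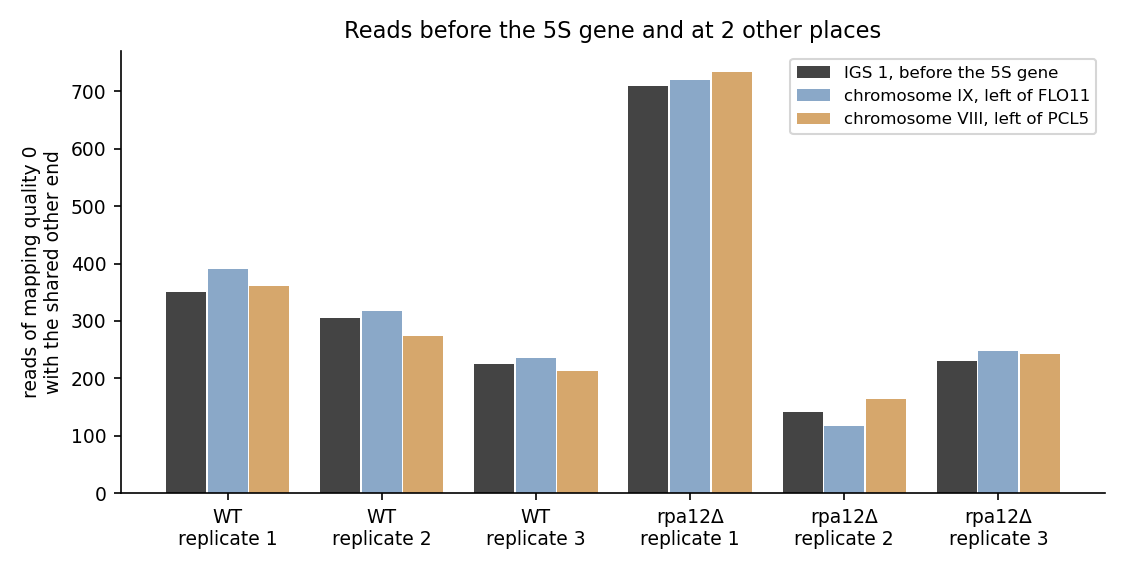
Number of reads of mapping quality 0 that share an RNA 5′ end, per library, in IGS 1 before the 5S gene and at the places on chromosomes IX and VIII with the most similar profiles. The 3 bars are close to each other in every library and rise and fall together from library to library.

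Reads above quality 0 in this window numbered 1, 1 and 0 in WT and 14, 10 and 8 in *rpa12Δ*. When quality-0 reads past position 7015 were left out, an alternative chosen after these values had been seen, the final 50 nt were higher in *rpa12Δ* by 4.43 on the log2 scale and 18 of 18 windows were higher. The reads at position 7015 and before it all score 0 because both copies hold them, so the same step could not be taken there.

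Set against the neighbouring regions, IGS 1 held 78.4, 77.6 and 66.2% of the occupancy between T1 and T2 in WT and 104, 109 and 107% in *rpa12Δ*. Without the final 50 nt these were 38.9, 34.7 and 30.1% in WT and 101, 107 and 105% in *rpa12Δ*, and the groups did not overlap in either count (exact permutation test on the log2 ratios with the final 50 nt, p = 0.1, adjusted p = 0.15 over 3 ratios). Both are sums over 876 or 826 nt of IGS 1 and 158 nt between T1 and T2. The 5S gene held 1.44, 2.09 and 2.84% of the IGS 1 occupancy in WT and 3.25, 3.67 and 2.98% in *rpa12Δ* (p = 0.1, adjusted p = 0.15, the same exact test). Without the quality-0 reads of IGS 1 past position 7015 this difference turned, from 0.69 to -0.37 on the log2 scale. The 5S gene kept all of its reads in that count.

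The pattern of peaks was stable between the *rpa12Δ* libraries. Over the 826 positions before the final 50 nt, Spearman's rho between *rpa12Δ* libraries was 0.916 to 0.934, and 40 to 42 of the 50 highest positions of each library were shared. Between WT libraries, rho was 0.339 to 0.415 and 24 to 27 of the 50 were shared, and between strains 0.321 to 0.384 and 21 to 29. Most WT positions hold 0 or 1 read end, so these values describe depth as well as pattern, and positions are not independent replicates. Tied positions were taken in order from T2, so part of the sharing that involves WT can come from that order. Of the 10 tallest local peaks of *rpa12Δ*, 9 had read ends in all 3 WT libraries and position 7011 had none.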

How the data were processed

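The authors immunoprecipitated Pol I, sequenced the nascent RNA and deposited the aligned reads of 6 libraries. The submitters' processing notes name bcl2fastq 2.18.0.012, Trim Galore 0.4.1, BWA 0.6 and SAMtools 1.3.1. The deposited lines give start, end and strand for each read, with the aligner's mapping quality (0 to 60) as the score the authors kept. How reads that fit several places were assigned is not given in the sources used here. The shortest read was 20 nt.

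A positive-strand read was counted at its 5′ end, which is the RNA 3′ end, in RPM of the ends from position 1 to T1. The plan was to count the complete R64 copy alone. The *rpa12Δ* reads lay on 2 copies up to position 7015 and on 1 after it, so that count puts a step into the decay. All copies were therefore summed instead, a choice made after the data were seen.

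Strains were compared with limma 3.58.1 in R 4.3.3 on log2(RPM + 1), Benjamini-Hochberg adjustment and a threshold of 0.05, with a variance trend for windows and positions, and with exact permutation tests in scipy 1.17.1 (Python 3.11.15). On simulated data with 184 windows in all, the window fit recovered 18 of 18 changed windows and called 1 unchanged window. With 6414 positions in all, the position fit recovered 200 of 200 changed positions and called 14 unchanged ones. Recovery at the spread of the real libraries was not tested. Named are the 10 highest local maxima (within 10 nt) of *rpa12Δ* and the 5 highest of WT, the highest position of each RFB site, of E-pro and of the final 50 nt in each strain, the first and last positions and any window lower in *rpa12Δ*. Members, lists and tests were chosen with earlier results of these data known. Sequence was not used here, and bases at the read ends were not analysed here.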

Additional observations from a re-analysis of the deposited data

Results flagged for a closer look

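The opposite strand of IGS 1, which takes no part in the comparisons of the Pol I strand, also held more read ends in *rpa12Δ*, at 390.5, 378 and 400.1 RPM (mean 389.6) against 192, 229 and 214 RPM in WT, without overlap between the strains (exact permutation test, p = 0.1). Without the 50 nt beside the 5S gene it was 325 ± 12.9 RPM in *rpa12Δ* and 170.4 ± 19.4 RPM in WT (SD, n = 3). The Pol I strand held 10.2, 11.8 and 12.1 times the read ends of the opposite strand in *rpa12Δ* and 0.798, 0.729 and 0.686 times in WT.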

How the results depend on the processing

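The difference of the IGS 1 total and of each RFB site and E-pro kept its direction and stayed past the threshold under every alternative run, with the IGS 1 total between 4.58 (complete repeat alone) and 5.87 (without the final 50 nt) and between 4.75 and 4.89 when single libraries were left out. The final 50 nt passed the threshold, higher in *rpa12Δ*, with distinct intervals counted once (2.79) and without quality-0 reads (4.43). Quality-0 reads were left out only in IGS 1 past position 7015. With windows of 25 or 100 nt, 34 of 36 and 9 of 9 were higher, and with windows of 100 nt, distinct intervals or no quality-0 reads 0 were lower. In the last window the log2 difference turned to 0.14 with distinct intervals and to 0.92 without quality-0 reads. The number of IGS 1 positions tested changed with the setting, and most of those tested were higher each time. Positions higher were 25 of 25 tested with all reads as denominator and 595 of 595 with distinct intervals. They were 160 of 167 at a minimum of 3 RPM, 794 of 876 with no filter and 90 of 95 with the complete repeat alone. With a library left out they ran from 29 of 31 to 55 of 57. Counting distinct intervals once limits a position to 1 end per read length, which compresses tall peaks. The per-position test of the study's methods gave 41 of 43 before and 39 of 43 after Benjamini-Hochberg adjustment.

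The difference in slope was -0.026 with the complete repeat alone, -0.018 and -0.20 with 0.1 and 10 RPM added, -0.017 with windows of 100 nt and -0.11 without the window at positions 7148 to 7197. It turned to 0.12 with distinct intervals, and the log2 ratio of the later to the earlier stretch of equal length differed by 0.53. With single libraries left out it ran from -0.091 to -0.058. IGS 1 over T1 to T2 differed by 0.53, which became 0.30 with the complete repeat alone, 0.43 with reads of at least 25 nt, 2.30 with distinct intervals and 1.59 without quality-0 reads. The 5S gene over IGS 1 became 0.31 with the complete repeat alone (from 0.69) and -0.37 without quality-0 reads, and the 100 nt before the final 50 nt over the first 100 nt, at 0.17, became 1.502 with distinct intervals. The cause of these changes was not tested. Alternatives without quality-0 reads, without the final 50 nt, without 1 window, and those of the ratios were chosen after seeing the data.

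The replicate numbers name no shared batch, and deviations of libraries with the same number correlated at -0.083, -0.31 and -0.087 over the IGS 1 windows, so they were not taken as pairs. With a replicate block, the IGS 1 total differed by 4.82 (limma adjusted p = 2.61e-06), 17 windows were higher and 1 lower, 41 positions were higher, and the slope differed by -0.080. The analysis of bases at the read ends was not run, since no genome sequence was used here. WT depth limits single windows, which held as few as 1 read end per library.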
